A study of Mus musculus with 8 samples.

Results

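The genes of the TGF-beta and BMP pathway, 43 in all, were followed across fibroblasts, neural precursors and pluripotent cells of the mouse. They were listed by pathway with earlier results of these data already known, so their shares against all genes describe this list only. Each was read from the brightest of its probe sets over the 8 arrays, among probe sets annotated to a single gene, and the 43 stand among 18193 genes read in this way. By role the list held 11 ligands and activators, 4 latent TGF-beta binding proteins, 8 receptors and co-receptors, 6 antagonists and ligand-binding proteins, 9 Smad proteins with a corepressor, and 5 target genes.

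Gene expression was measured in wild-type mouse cells on whole-genome Affymetrix arrays. MEF (2 arrays) were primary embryonic fibroblasts grown in medium with serum. NPC (3 arrays) were neural precursor cells made from ES cells in culture by way of embryoid bodies and selection in ITSFn medium, then kept with FGF2 and a second factor written EGF2 in the labels. ES cells (3 arrays) were of a single line, V6.5, grown with serum and leukemia-inhibiting factor on irradiated MEF and then passaged on gelatin without feeders. Each cell type had its own culture conditions, so cell type and medium cannot be told apart in any comparison. The strain and stage of the embryos behind the MEF are not given in the labels, and they do not say whether replicate arrays stand for separate cultures. The p-values therefore set each difference against the spread between these arrays alone, and that spread may be technical.

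TGF-beta is secreted in a latent complex, which latent TGF-beta binding proteins tether to the extracellular matrix until the growth factor is released. Ligands of the family bring together type I and type II receptor kinases. TGF-beta and activin receptors phosphorylate Smad2 and Smad3, BMP receptors phosphorylate Smad1, Smad5 and Smad9, and both sets act in the nucleus with Smad4. Smad6 and Smad7 are inhibitory Smads that the pathway itself induces, and the Id genes, which encode inhibitors of basic helix-loop-helix transcription factors, are well known BMP targets. In mouse ES cells BMP4 with leukemia-inhibiting factor can sustain self-renewal through Id genes. In neural precursors BMP favours glial over neuronal fates, and in fibroblasts TGF-beta drives matrix production.

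Most pathway genes called between MEF and another cell type were higher in MEF. A gene was called different at an adjusted p under 0.05 (limma, Benjamini-Hochberg over all 18193 genes) together with a log2 difference of at least 1, that is 2-fold on the scale log2(intensity + 16). Against ES cells, 24 of the 43 members were higher in MEF (55.8%) and 2 were lower (4.65%), where 12.2% of all genes were higher and 12.8% lower. Against NPC, 23 were higher in MEF (53.5%) and 1 was lower (2.33%), where 10.5% of all genes were higher and 7.95% lower. NPC against ES cells gave 7 higher (16.3%) and 13 lower (30.2%), where 10.0% of all genes were higher and 12.9% lower.

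The median log2 difference over the members was 1.29 for MEF against ES cells, 1.32 for MEF against NPC and 0.04 for NPC against ES cells, and over all genes -0.04, -0.01 and -0.05. In each of the 70 called differences of members the arrays of the 2 groups did not overlap. The rule for a call itself favours such separation, and the share among all called genes is not given here. It therefore adds no separate support. The comparisons share arrays in pairs, so their counts are not independent of each other. Quantile normalization gives all arrays 1 distribution, and the number of calls in each direction moved with that choice. Among all genes, the share of calls that were higher in MEF than in ES cells was 48.9%, against 65.1% after median centring and 79.3% with the deposited scaling. The members gave 24 higher and 2 lower, 27 and 2, and 33 and 0 under these settings. For MEF against NPC the share of all calls was 56.9%, 74.1% and 87.5%, and the members gave 23 higher and 1 lower, 26 and 1, and 32 and 1. With the deposited scaling the median of all genes itself stood at 0.32 for MEF against ES cells and 0.43 for MEF against NPC. NPC against ES cells gave 7 higher and 13 lower members under each of these scalings.

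**Figure D1:**
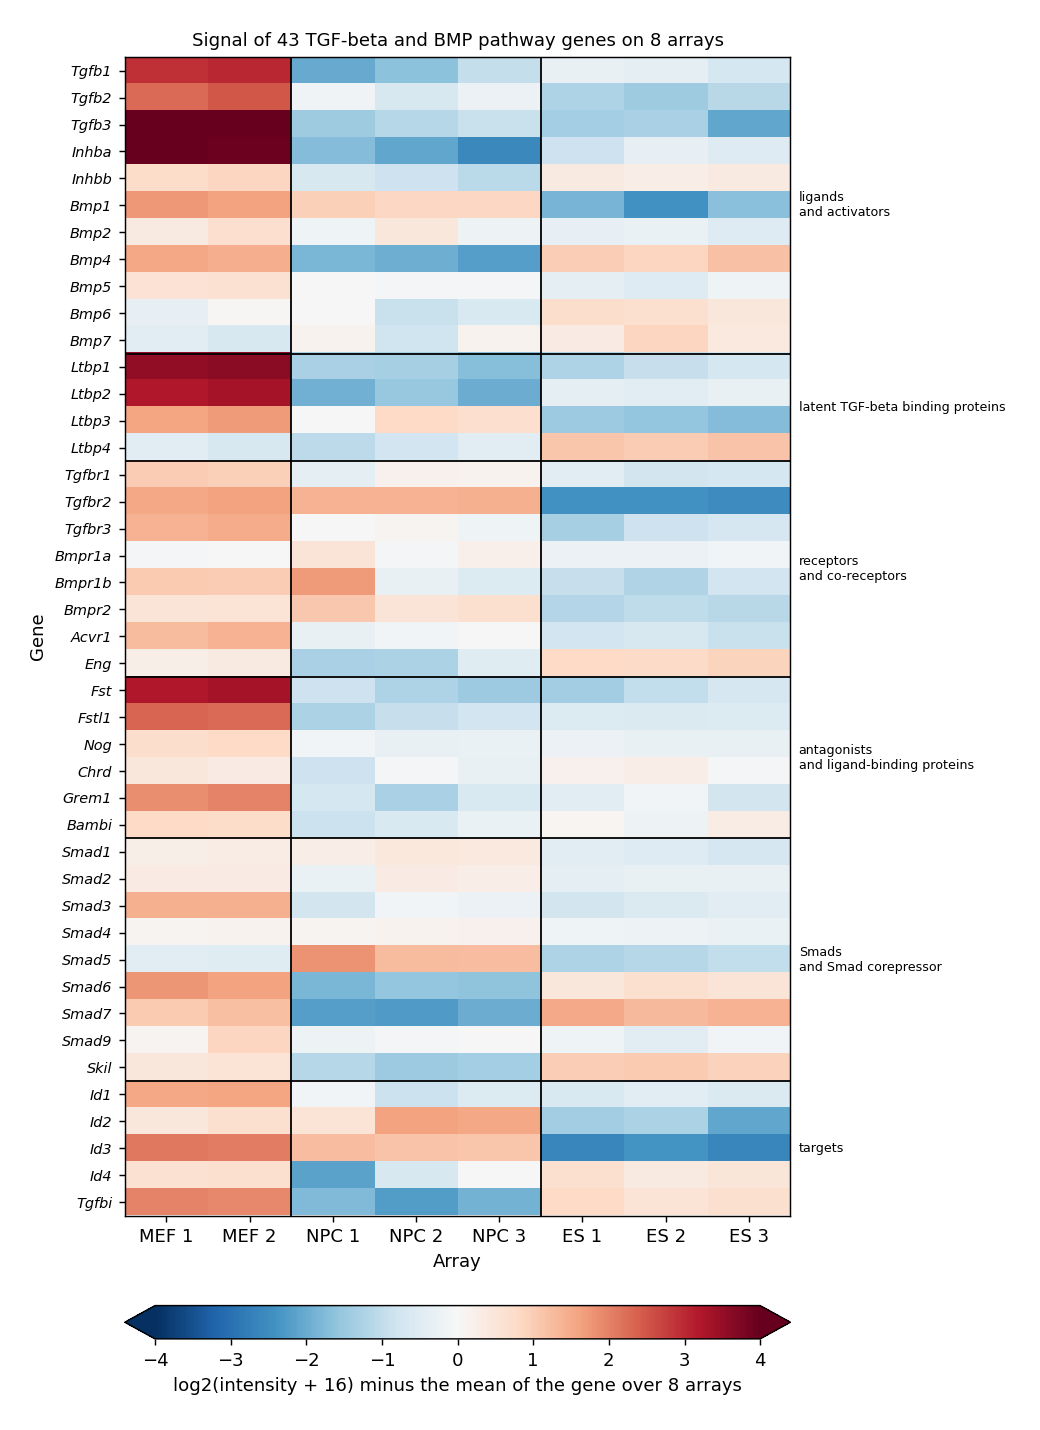
Each row is a member, ordered by role, and each column an array (MEF, NPC, ES). Colour gives log2(intensity + 16) on that array minus the gene's own mean over the 8 arrays, so it shows differences within a gene and not levels between genes. The 16 members called higher in MEF than in both others appear as rows with their highest values in the MEF columns.

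Read by cell type, 16 members were higher in MEF than in both NPC and ES cells (37.2%, against 6.22% of all genes), and none was called lower in MEF than in both, as 2.53% of all genes were. NPC were lower than both MEF and ES cells in 11 members (25.6%, against 4.06% of all genes). With a pseudocount of 64 in place of 16, Tgfb1, Inhba, Inhbb, Ltbp2 and Id4 lost their call against ES cells. Eng then lost its call between MEF and NPC. Tgfb1 and Id4 also lost their call against ES cells without NPC 1. ES cells were lower than both NPC and MEF in 6 members (14.0%, against 4.70% of all genes). Smad5 was the 1 member called higher in NPC than in both others (2.33%, against 4.21% of all genes). Ltbp4 was the 1 called higher in ES cells than in both others (2.33%, against 7.77% of all genes). A further 8 were called in no comparison (18.6%, against 63.1% of all genes). These were Bmp2, Bmp5, Bmpr1a, Chrd, Smad1, Smad2, Smad4 and Smad9. All 43 entered the test without a filter on dim genes, and 39 lay above the dimmest 30% of genes, the other 4 being Bmp2, Bmp5, Nog and Smad9. The lowest value the scale can take is 4, and folds against groups near it are understated.

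The 5 ES cell markers summed to 35.7 and 57.3 in MEF, 34.1 to 42.7 in NPC and 27037 to 27802 in ES cells (normalized intensity). The 5 fibroblast markers summed to 27710 and 28028 in MEF, 54.2 to 68.9 in NPC and 260 to 274 in ES cells. The 5 neural precursor markers summed to 501 and 503 in MEF, 11002 to 17027 in NPC and 4178 to 4820 in ES cells, 4 of them higher in NPC than in ES cells and Sox2 differing by -0.98, which was not called. The 5 neuron markers summed to 677 and 631 in MEF, 104 to 121 in NPC and 3149 to 3229 in ES cells. In MEF and ES cells most of the sum was Stmn2, which measured 4.15 to 4.60 in NPC. The part of the neuron markers in the results was not tested. NPC 1 was less like the other NPC arrays than they were like each other, with correlations over all probe sets of 0.967 (NPC 2) and 0.969 (NPC 3), against 0.987 between NPC 2 and NPC 3. Its 5 astrocyte markers summed to 1245, mostly from Gja1, against 272 and 250 in NPC 2 and NPC 3. They summed to 3371 and 3356 in MEF and 2120 to 2281 in ES cells. In NPC 1, NPC 2 and NPC 3, Gfap measured 4.91, 4.95 and 5.08, and Aqp4 4.90, 4.98 and 5.33. Slc1a2 measured 6.38, 6.38 and 5.84, and Aldh1l1 5.42, 5.05 and 5.35. Results that rest on NPC 1 are given with and without it. In RNA from whole cultures, fewer cells of a type and less RNA per cell cannot be told apart.

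The 3 TGF-beta ligands were much higher in MEF than in either other cell type. Tgfb3, a TGF-beta of mesenchyme and fusing epithelia, measured 10.65 and 10.61 on the log2 scale in MEF, 5.13, 5.41 and 5.63 in NPC, and 5.18, 5.25 and 4.45 in ES cells. The NPC and ES arrays overlapped while the MEF arrays stood far above both. MEF were 51.0-fold higher than ES cells (log2 difference 5.67, SE 0.26, adjusted p = 3.35e-07) and 37.8-fold higher than NPC (5.24, SE 0.26, adjusted p = 6.63e-07). Tgfb2 measured 8.47 and 8.70 in MEF, 6.08, 5.58 and 6.0 in NPC, and 5.00, 4.81 and 5.11 in ES cells, so that the 3 groups kept apart. It was 12.2-fold higher in MEF than in ES cells and 6.49-fold higher than in NPC. Its difference between NPC and ES cells was 0.91 (SE 0.18, adjusted p = 0.00247), short of the 2-fold limit, and passed it without NPC 2 (1.07).

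Tgfb1, the TGF-beta most widely made by blood and connective tissue cells, measured 9.03 and 9.11 in MEF, 4.10, 4.47 and 5.16 in NPC, and 5.79, 5.76 and 5.42 in ES cells. MEF were 10.7-fold higher than ES cells (log2 difference 3.41, SE 0.29, adjusted p = 1.28e-05) and 22.5-fold higher than NPC (4.49, SE 0.29, adjusted p = 3.41e-06). NPC were 2.11-fold lower than ES cells (-1.08, adjusted p = 0.00734), a call that ended without NPC 1 (-0.84), with array weights (-0.83), when its probe sets were averaged (-0.32) and with a pseudocount of 64 (-0.44). A second, dimmer Tgfb1 probe set gave 0.42 for MEF against ES cells and -0.02 for MEF against NPC. Macrophage markers moved with the MEF result. The 5 summed to 863 and 892 in MEF, 35.3 to 51.1 in NPC and 264 to 301 in ES cells, with 4 of 5 higher and Cd68 lower in MEF than in ES cells, and 5 of 5 higher in MEF than in NPC. The weakest in MEF, Ptprc, measured 6.37 and 6.05. Their part in the Tgfb1 result was not tested.

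Inhba, which encodes the activin beta A chain, had the widest difference of any member when each gene was read from its brightest probe set. It measured 11.08 and 10.88 in MEF, 5.23, 4.88 and 4.38 in NPC, and 6.12, 6.63 and 6.45 in ES cells, with no overlap between any 2 groups. MEF were 70.9-fold higher than NPC (log2 difference 6.15, SE 0.25, adjusted p = 2.09e-07) and 23.9-fold higher than ES cells (4.58, SE 0.25, adjusted p = 8.95e-07). NPC were 2.97-fold lower than ES cells (-1.57, SE 0.22, adjusted p = 0.000327), which did not reach 2-fold with a pseudocount of 64 (-0.79) or with the mean of its probe sets (-0.72). A second Inhba probe set, with a mean of 4.18 over the arrays, gave 0.02 for MEF against ES cells and -0.10 for MEF against NPC. Inhbb, the activin beta B chain, followed another course. It measured 7.80 and 7.91 in MEF, 6.42, 6.25 and 5.97 in NPC, and 7.42, 7.32 and 7.41 in ES cells. NPC were low, 2.25-fold below ES cells (-1.17, adjusted p = 0.000108), and MEF were 3.13-fold higher than NPC, while MEF against ES cells differed by 0.47. The call of Inhbb between NPC and ES cells ended when its probe sets were averaged (-0.74) and with a pseudocount of 64 (-0.82).

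Bmp4, a ligand that patterns mesoderm and restrains neural fate in the embryo, was near the floor in NPC and well above it in MEF and ES cells. It measured 8.13 and 8.02 in MEF, 4.75, 4.62 and 4.37 in NPC, and 7.57, 7.45 and 7.75 in ES cells. NPC were 8.04-fold lower than ES cells (log2 difference -3.01, SE 0.15, adjusted p = 4.85e-07), and MEF were 11.3-fold higher than NPC (3.50, SE 0.17, adjusted p = 6.54e-07). The difference between MEF and ES cells was 0.49 and was not called. Bmp1, which in spite of its name is a metalloproteinase that processes procollagens and chordin, showed the reverse order for NPC and ES cells. It measured 8.62 and 8.50 in MEF, 7.85, 7.73 and 7.71 in NPC, and 5.04, 4.46 and 5.23 in ES cells. NPC were 7.24-fold higher than ES cells (2.86, SE 0.20, adjusted p = 2.89e-06) and MEF 12.5-fold higher (3.65, SE 0.22, adjusted p = 1.5e-06).

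The other BMP ligands were dim. Bmp6 measured 4.78 and 5.16 in MEF, 5.08, 4.22 and 4.50 in NPC, and 5.82, 5.75 and 5.56 in ES cells. NPC were 2.16-fold lower than ES cells (-1.11, adjusted p = 0.00337), a call that ended without NPC 2 (-0.92) and with a pseudocount of 64 (-0.47). Bmp7 measured 4.97 and 4.77 in MEF, 5.55, 4.62 and 5.55 in NPC, and 5.75, 6.27 and 5.81 in ES cells. MEF were 2.11-fold lower than ES cells (-1.07, adjusted p = 0.0178). That call ended without MEF 1 (-1.17, by its adjusted p), without MEF 2 (-0.97) and without ES 2 (-0.91, adjusted p = 0.0606). It also ended with the deposited scaling (-0.77), with the replicate block (-1.03) and with a pseudocount of 64 (-0.51). NPC differed from ES cells by -0.71 (adjusted p = 0.0638), which was not called. The other Bmp7 probe sets gave -1.55 and -0.85 for MEF against ES cells, and -1.21 and -0.79 for NPC against ES cells. Bmp2 and Bmp5 were called nowhere. Bmp2 passed the limit for MEF against ES cells without MEF 1 (1.06), as Bmp5 did without ES 3 (1.03), and their highest values on any array were 5.53 and 5.38.

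**Figure D2:**
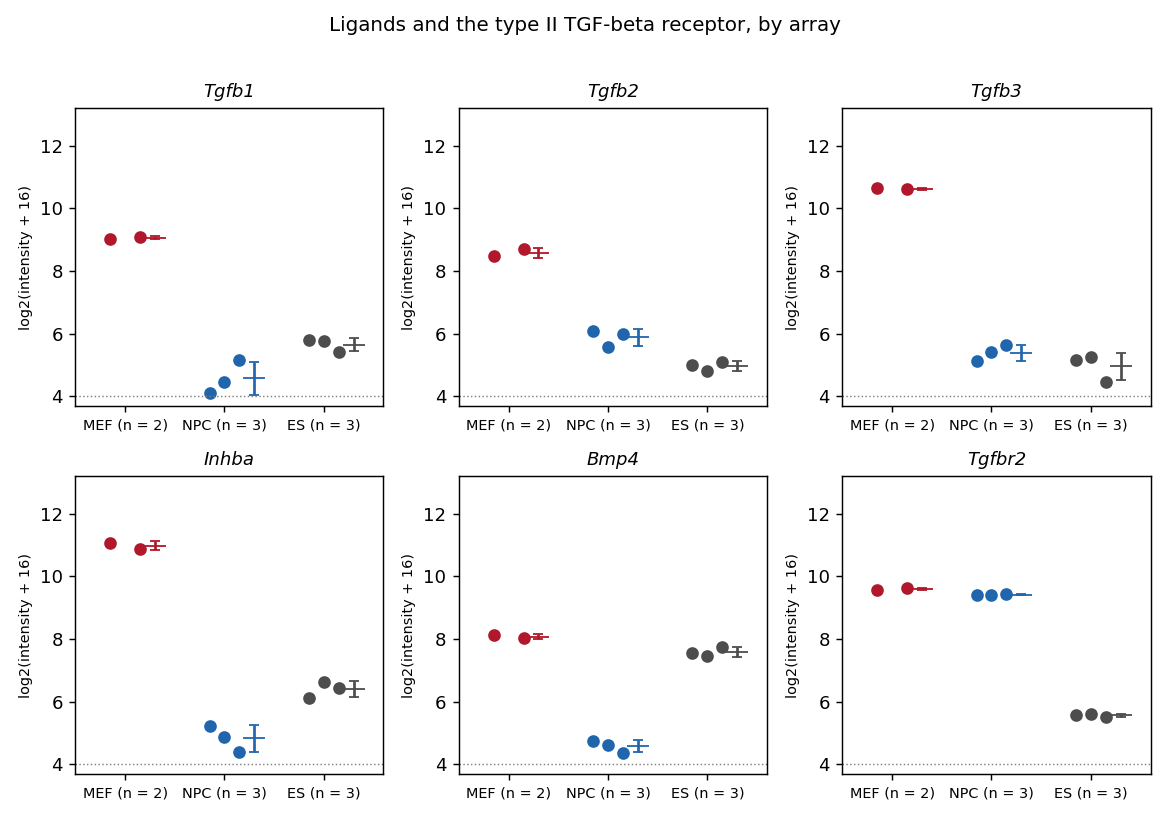
Points are single arrays of MEF (n = 2), NPC (n = 3) and ES cells (n = 3), with the mean and SD beside them, on the scale log2(intensity + 16), and the dotted line is the floor of 4. The 3 TGF-beta ligands and Inhba are high in MEF alone, Bmp4 is low in NPC alone, and Tgfbr2 is low in ES cells alone.

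Of the latent TGF-beta binding proteins, Ltbp1, Ltbp2 and Ltbp3 were higher in MEF than in both other cell types, and Ltbp4 was highest in ES cells. Ltbp1 measured 10.39 and 10.45 in MEF, 5.56, 5.50 and 5.15 in NPC, and 5.62, 5.92 and 6.14 in ES cells. MEF were 23.2-fold higher than ES cells (log2 difference 4.53, adjusted p = 2.52e-07) and 32.4-fold higher than NPC (5.02, adjusted p = 1.56e-07). Ltbp2, whose product does not bind TGF-beta itself and associates with elastic fibres, measured 9.33 and 9.44 in MEF, 4.18, 4.59 and 4.13 in NPC, and 5.73, 5.65 and 5.83 in ES cells. All 3 groups kept apart, with MEF 12.5-fold above ES cells, MEF 33.8-fold above NPC, and NPC 2.70-fold below ES cells. The last of these ended with a pseudocount of 64 (-0.58).

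Ltbp3 gave a graded order. It measured 9.88 and 10.03 in MEF, 8.30, 9.11 and 9.0 in NPC, and 6.85, 6.76 and 6.59 in ES cells. MEF were 9.34-fold higher than ES cells and NPC 4.21-fold higher than ES cells. The difference between MEF and NPC was 1.15 (SE 0.22, adjusted p = 0.00276) and lost its call without NPC 1 (0.90), with array weights (0.98) and when its probe sets were averaged (0.83). Ltbp4 measured 7.43 and 7.20 in MEF, 6.80, 7.10 and 7.44 in NPC, and 8.95, 8.87 and 8.99 in ES cells. MEF were 3.08-fold and NPC 3.54-fold lower than ES cells, with overlapping MEF and NPC arrays. With the deposited scaling the MEF difference was -0.85 and was not called.

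Both type II receptors among the members, Tgfbr2 and Bmpr2, were lower in ES cells than in MEF and NPC. Tgfbr2, the kinase that binds TGF-beta directly, measured 9.56 and 9.62 in MEF, 9.40, 9.41 and 9.45 in NPC, and 5.58, 5.60 and 5.51 in ES cells. NPC were 14.4-fold higher than ES cells (log2 difference 3.85, SE 0.09, adjusted p = 5.54e-09) and MEF 16.3-fold higher (4.02, SE 0.10, adjusted p = 1.63e-08). Between MEF and NPC the difference was 0.17 (SE 0.10, adjusted p = 0.207). A second Tgfbr2 probe set gave 1.52 and 1.80 for NPC and MEF against ES cells, and another, whose mean over the arrays was 4.25, gave 0.11 and 0.06. Bmpr2, the type II BMP receptor, showed the same order at smaller size. It measured 10.05 and 10.08 in MEF, 10.62, 10.06 and 10.20 in NPC, and 8.38, 8.53 and 8.45 in ES cells, so NPC were 3.57-fold and MEF 3.06-fold higher than ES cells.

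Of the type I receptors, Tgfbr1, the partner of Tgfbr2, measured 9.71 and 9.65 in MEF, 8.36, 8.89 and 8.84 in NPC, and 8.26, 7.96 and 8.0 in ES cells. MEF were 3.05-fold higher than ES cells (1.61, adjusted p = 4.56e-05), whereas the difference of 0.99 between MEF and NPC fell just short of the limit and passed it without MEF 2 (1.02), without NPC 2 (1.08), without NPC 3 (1.06), with the replicate block (1.003), with the mean of its probe sets (1.15), with median centring (1.54) and with the deposited scaling (1.89). Acvr1, a type I receptor for BMPs also known as ALK2, measured 9.22 and 9.34 in MEF, 7.67, 7.85 and 7.95 in NPC, and 7.20, 7.32 and 7.07 in ES cells. MEF were 4.24-fold higher than ES cells (2.08, adjusted p = 1.75e-06) and 2.74-fold higher than NPC (1.45, adjusted p = 2.37e-05), where the comparison with NPC was not called with the mean of its probe sets (0.90). Bmpr1a, the widely expressed type I BMP receptor, was bright on every array, with 9.48 and 9.52 in MEF, 9.43 to 10.02 in NPC and 9.27 to 9.39 in ES cells, and was called nowhere.

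Bmpr1b, a type I BMP receptor of cartilage and neural progenitors, had calls that changed when single arrays were left out. It measured 6.55 and 6.52 in MEF, 7.19, 5.19 and 4.94 in NPC, and 4.57, 4.28 and 4.74 in ES cells, with NPC 1 above its group. MEF were 4.01-fold higher than ES cells (2.00, SE 0.56, adjusted p = 0.0166). The adjusted p ended this call without MEF 1 (1.99), without MEF 2 (2.02) and without ES 2 (1.88, adjusted p = 0.0547), while the size changed little. A pseudocount of 64 ended it by size (0.99). The other Bmpr1b probe sets gave 0.65 and 1.06 for MEF against ES cells, and -0.04 and 0.59 for NPC against ES cells. NPC against ES cells gave 1.24 (adjusted p = 0.0740) with all arrays and 1.66 (adjusted p = 0.0302) without NPC 3. MEF against NPC gave 0.76 with all arrays and 1.47, a called difference, without NPC 1.

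The co-receptors diverged. Tgfbr3, or betaglycan, which presents TGF-beta2 to the signalling receptors, measured 7.60 and 7.69 in MEF, 6.22, 6.32 and 6.02 in NPC, and 4.87, 5.37 and 5.53 in ES cells. MEF were 5.24-fold higher than ES cells and 2.74-fold higher than NPC, and the difference of 0.93 between NPC and ES cells passed the limit without NPC 3 (1.02) and without ES 3 (1.07). Eng, or endoglin, a co-receptor best known from endothelium, measured 6.46 and 6.57 in MEF, 4.91, 4.94 and 5.72 in NPC, and 7.01, 6.98 and 7.09 in ES cells. NPC were 3.56-fold lower than ES cells (-1.83, SE 0.22, adjusted p = 0.000116), and MEF were 2.49-fold higher than NPC (1.32, adjusted p = 0.00249), which ended with a pseudocount of 64 (0.71). The 5 endothelial markers were near the floor in all groups, summing to 57.4 and 74.3 in MEF, 40.0 to 56.0 in NPC and 59.0 to 90.0 in ES cells.

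Antagonists and ligand-binding proteins differed between MEF and the other cell types. Of 6, 4 were higher in MEF than in ES cells and 4 were higher in MEF than in NPC, where 12.2% and 10.5% of all genes were higher. Between NPC and ES cells limma called none of the 6, and 3 had an unadjusted p under 0.05. Fst, or follistatin, which traps activins, measured 9.59 and 9.71 in MEF, 5.54, 5.12 and 4.93 in NPC, and 4.98, 5.38 and 5.71 in ES cells. MEF were 19.6-fold higher than ES cells (log2 difference 4.29, adjusted p = 1.34e-06) and 21.8-fold higher than NPC (4.45, adjusted p = 1.49e-06), so the activin antagonist was high in the same arrays as the activin chain Inhba. Fstl1, a secreted follistatin-like glycoprotein of mesenchyme, measured 12.77 and 12.72 in MEF, 9.18, 9.52 and 9.68 in NPC, and 9.91, 9.87 and 9.89 in ES cells. It was bright in all 3 and still 7.23-fold higher in MEF than in ES cells and 9.75-fold higher than in NPC.

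Grem1, or gremlin, which binds BMP2 and BMP4, measured 7.65 and 7.77 in MEF, 5.09, 4.48 and 5.18 in NPC, and 5.35, 5.68 and 5.03 in ES cells. MEF were 5.11-fold higher than ES cells (2.35, adjusted p = 7.85e-05) and 6.92-fold higher than NPC (2.79, adjusted p = 3.95e-05). Bambi, a pseudoreceptor without a kinase domain, measured 8.10 and 8.01 in MEF, 6.43, 6.69 and 7.02 in NPC, and 7.38, 7.09 and 7.60 in ES cells. It was 2.53-fold higher in MEF than in NPC, and the other differences were not called. The neural inducers noggin and chordin were dim. Nog measured 5.19 and 5.31 in MEF and 4.20 to 4.39 in the other 6 arrays. Its difference of 1.02 between MEF and ES cells was called, and this call ended without MEF 2 (0.96), with median centring (0.95), with trimmed mean scaling (0.90), with the replicate block (0.998) and with a pseudocount of 64 (0.37). Against NPC it was 0.98, and passed without MEF 1 (1.04) or NPC 1 (1.04). Chrd lay between 4.25 and 5.53 on all arrays.

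Of the receptor-activated Smads, Smad3 and Smad5 were called. Smad5, which carries BMP signals, measured 8.08 and 8.04 in MEF, 10.33, 9.81 and 9.79 in NPC, and 7.30, 7.40 and 7.57 in ES cells, and was the sole member called higher in NPC than in both others. NPC were 5.87-fold higher than ES cells (log2 difference 2.55, SE 0.15, adjusted p = 1.19e-06), and MEF were 3.77-fold lower than NPC (-1.92, SE 0.17, adjusted p = 2.41e-05). Its other probe sets gave 2.30 and 1.36 for NPC against ES cells, and -1.27 and -0.43 for MEF against NPC. Smad3, a TGF-beta and activin effector, measured 9.26 and 9.28 in MEF, 7.11, 7.74 and 7.63 in NPC, and 7.12, 7.28 and 7.42 in ES cells. MEF were 3.99-fold higher than ES cells (2.00, adjusted p = 2.2e-05) and 3.43-fold higher than NPC (1.78, adjusted p = 6.94e-05).

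Smad4, the shared partner, was bright and nearly level, with 10.57 and 10.58 in MEF, 10.57, 10.58 and 10.61 in NPC, and 10.27, 10.25 and 10.19 in ES cells. Its difference of 0.35 between NPC and ES cells had an adjusted p of 0.00124 and was far from 2-fold. Smad1, the partner of Smad5 in BMP signalling, measured 9.08 and 9.13 in MEF, 9.10 to 9.26 in NPC and 8.17 to 8.37 in ES cells, and its 0.91 between NPC and ES cells (adjusted p = 2.89e-05) was not called. Between MEF and ES cells Smad1 gave 0.82, not called, but 1.19 without probe sets of shared sequence, 1.33 with median centring and 1.65 with the deposited scaling, each called. Smad2 measured 8.88 and 8.87 in MEF, 8.29 to 8.89 in NPC and 8.17 to 8.26 in ES cells. The main Smad2 probe set gave 0.44 for NPC and 0.65 for MEF against ES cells, neither called, and a second, dimmer probe set gave -1.29 and -1.13. Smad9, the third BMP Smad, stayed between 4.06 and 5.32, and for MEF against ES cells passed the limit without MEF 1 (1.08).

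The inhibitory Smads and Skil were low in NPC. Smad7, which blocks TGF-beta and BMP receptors, measured 8.60 and 8.74 in MEF, 5.34, 5.28 and 5.58 in NPC, and 9.08, 8.85 and 8.95 in ES cells. NPC were 11.8-fold lower than ES cells (log2 difference -3.56, SE 0.12, adjusted p = 4.76e-08), and MEF were 9.68-fold higher than NPC (3.27, SE 0.14, adjusted p = 2.38e-07). MEF and ES cells differed by -0.29, which was not called. Smad6, which mainly restrains BMP signals, measured 8.03 and 7.88 in MEF, 4.45, 4.74 and 4.68 in NPC, and 6.73, 6.93 and 6.79 in ES cells, in 3 separate ranges. NPC were 4.57-fold lower than ES cells (-2.19, SE 0.15, adjusted p = 2.72e-06), MEF 10.1-fold higher than NPC (3.33, SE 0.17, adjusted p = 6.69e-07), and MEF 2.21-fold higher than ES cells (1.14, adjusted p = 0.000377), the last not called with a pseudocount of 64 (0.88). Skil, the corepressor SnoN, measured 10.16 and 10.25 in MEF, 8.55, 8.25 and 8.37 in NPC, and 10.69, 10.77 and 10.63 in ES cells. NPC were 4.94-fold lower than ES cells (-2.31, SE 0.09, adjusted p = 1.18e-07), and MEF were 3.53-fold higher than NPC (1.82, SE 0.10, adjusted p = 1.53e-06).

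The promoter of Smad6 is shown because it was the one member window that held the palindromic Smad binding element, GTCTAGAC. The window is RefSeq's, on GRCm38.p6 at chr9:64022010-64022309, minus strand, from 250 bases before the start site to 50 after it. Capitals mark the element, which lies across the start site from -4 to 4.
Smad6: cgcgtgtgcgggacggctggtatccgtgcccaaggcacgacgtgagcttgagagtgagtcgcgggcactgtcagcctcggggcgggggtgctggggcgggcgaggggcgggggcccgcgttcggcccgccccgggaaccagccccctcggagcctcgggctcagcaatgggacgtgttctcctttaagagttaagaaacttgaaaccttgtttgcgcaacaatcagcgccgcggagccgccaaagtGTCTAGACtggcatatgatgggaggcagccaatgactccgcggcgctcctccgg
The element, whose letters read the same on both strands, was found in 1 of 38 windows of members (2.63%) and in 70 of 32851 windows of all genes (0.213%). Windows were found for 30 of the 43 members. The motifs were chosen after the values had been seen, and a match describes letters only.

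The Id genes did not move as 1 group. Id3 was far lower in ES cells than in both other cell types. It measured 11.14 and 11.08 in MEF, 10.26, 10.16 and 10.12 in NPC, and 6.43, 6.63 and 6.41 in ES cells. NPC were 12.9-fold higher than ES cells (log2 difference 3.69, SE 0.09, adjusted p = 6.65e-09) and MEF 24.5-fold higher (4.62, SE 0.10, adjusted p = 1.07e-08), while MEF against NPC gave 0.92, below the limit, which it passed with median centring (1.45) and the deposited scaling (1.79). Id2 measured 9.29 and 9.50 in MEF, 9.39, 10.44 and 10.38 in NPC, and 7.44, 7.56 and 6.76 in ES cells. NPC were 7.03-fold higher than ES cells (2.81, SE 0.30, adjusted p = 4.73e-05) and MEF 4.41-fold higher (2.14, SE 0.33, adjusted p = 0.000562). On another, dimmer Id2 probe set, used when sets of shared sequence were left out, these were 1.21 and 0.76, the second not called. MEF against NPC gave -0.67 for Id2 and -1.01, a called difference, without NPC 1.

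Id1, the Id gene often used as a readout of BMP signalling, was high in MEF alone. It measured 9.90 and 9.95 in MEF, 8.26, 7.51 and 7.82 in NPC, and 7.76, 7.91 and 7.79 in ES cells. MEF were 4.29-fold higher than ES cells (2.10, adjusted p = 1.77e-05) and 4.17-fold higher than NPC (2.06, adjusted p = 3.07e-05). NPC against ES cells gave 0.04 (SE 0.17, adjusted p = 0.874), with overlapping arrays. Id4 measured 7.95 and 7.96 in MEF, 5.20, 6.70 and 7.36 in NPC, and 7.97, 7.70 and 7.81 in ES cells, so NPC lay below both others but spread over more than 2 log2 units. NPC were 2.65-fold lower than ES cells (-1.41, SE 0.44, adjusted p = 0.0273), a call that ended without NPC 1 (-0.80), without ES 1 (adjusted p = 0.0848), without ES 2 (adjusted p = 0.0621), without ES 3 (adjusted p = 0.0732), with array weights (-0.84) and with a pseudocount of 64 (-0.98). MEF were 2.89-fold higher than NPC (1.53, SE 0.50, adjusted p = 0.0361), which was 0.92 without NPC 1, 0.95 with array weights and 1.10 (adjusted p = 0.0769) when its probe sets were averaged. Each array but NPC 3 ended this call when left out, with adjusted p from 0.0524 to 0.147 for those other than NPC 1. NPC 1, the lowest NPC array for Id4, had Gja1 at 10.15, against 7.43 and 7.30 in NPC 2 and NPC 3, and the part of this in the Id4 result was not tested.

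The promoters of Id2, Id3 and Id4 are shown because Id2 and Id3 were higher in NPC than in ES cells and Id4 was lower. They are RefSeq windows on GRCm38.p6 from 250 bases before the start site to 50 after it. Id2 lies at chr12:25096043-25096342 on the minus strand, Id3 at chr4:136143572-136143871 on the plus strand and Id4 at chr13:48260866-48261165 on the plus strand. Capitals mark the core of the BMP response element, GGCGCC, whose letters read the same on both strands and do not overlap the Smad binding element.
Id2: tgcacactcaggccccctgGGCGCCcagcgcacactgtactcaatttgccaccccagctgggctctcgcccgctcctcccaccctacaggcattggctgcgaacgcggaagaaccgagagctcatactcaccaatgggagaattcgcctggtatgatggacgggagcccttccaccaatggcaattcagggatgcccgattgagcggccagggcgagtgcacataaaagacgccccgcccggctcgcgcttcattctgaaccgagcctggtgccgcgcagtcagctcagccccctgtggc
Id3: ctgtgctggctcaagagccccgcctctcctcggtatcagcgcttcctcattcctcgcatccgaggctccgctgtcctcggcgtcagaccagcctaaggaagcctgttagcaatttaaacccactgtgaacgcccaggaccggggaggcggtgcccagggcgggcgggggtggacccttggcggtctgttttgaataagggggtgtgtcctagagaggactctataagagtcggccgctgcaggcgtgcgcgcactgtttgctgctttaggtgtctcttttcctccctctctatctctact
Id4: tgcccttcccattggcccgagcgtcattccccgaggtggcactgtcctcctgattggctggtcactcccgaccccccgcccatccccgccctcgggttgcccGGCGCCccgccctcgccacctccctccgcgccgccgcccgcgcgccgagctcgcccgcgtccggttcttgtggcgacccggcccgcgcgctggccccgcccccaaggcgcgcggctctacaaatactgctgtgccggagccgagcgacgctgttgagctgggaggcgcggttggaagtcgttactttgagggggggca
The core lay at -231 to -226 in Id2 and at -148 to -143 in Id4, and its letters were not in the Id3 window. It was held by 13 of 38 windows of members (34.2%), belonging to 11 of 30 genes, and by 3898 of 32851 windows of all genes (11.9%). Of the 2 Id genes shown with the core, Id2 was higher in NPC than in ES cells. Id4 was lower, by the call that single arrays ended. The part of the core in these values was not tested.

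Tgfbi, a matrix protein named for its induction by TGF-beta, measured 8.76 and 8.73 in MEF, 5.02, 4.56 and 4.91 in NPC, and 7.58, 7.33 and 7.45 in ES cells. NPC were 6.16-fold lower than ES cells (-2.62, SE 0.15, adjusted p = 1.12e-06), and MEF were 15.1-fold higher than NPC (3.92, SE 0.17, adjusted p = 3.22e-07) and 2.45-fold higher than ES cells (1.29, SE 0.17, adjusted p = 0.000218). Each of its 4 probe sets lay on the same side in all 3 comparisons. Macrophages also make Tgfbi, and the macrophage markers given beside Tgfb1 were higher in MEF. Their part in the Tgfbi result was not tested.

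**Figure D3:**
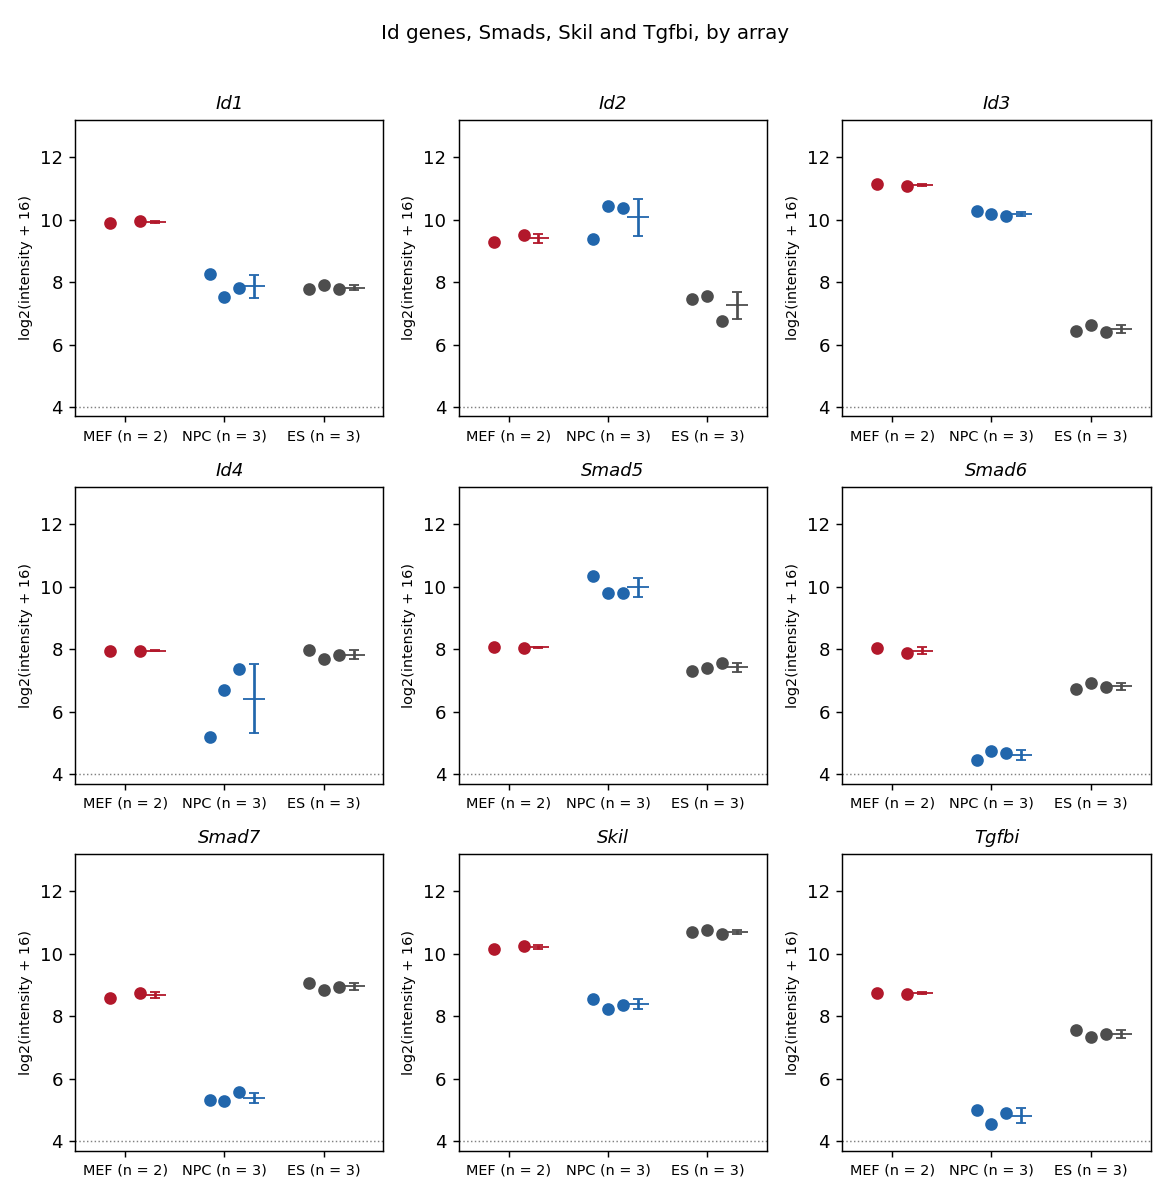
Points are single arrays of MEF (n = 2), NPC (n = 3) and ES cells (n = 3) with mean and SD, on the scale log2(intensity + 16), for the Id genes, Tgfbi, Smad5, the inhibitory Smads and Skil. Id2 and Id3 are low in ES cells, Smad6, Smad7, Skil and Tgfbi are low in NPC, Smad5 is high in NPC, and NPC arrays of Id4 are spread between 5.20 and 7.36.

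NPC and ES cells differed in 20 members. Higher in NPC were Bmp1, Ltbp3, Tgfbr2, Bmpr2, Smad5, Id2 and Id3. Lower in NPC were Tgfb1, Inhba, Inhbb, Bmp4, Bmp6, Ltbp2, Ltbp4, Eng, Smad6, Smad7, Skil, Id4 and Tgfbi. Of the 10 ligands, that is without the proteinase Bmp1, 5 were lower and the other 5 were not called (median difference -0.89). Receptors and co-receptors gave 2 higher and 1 lower of 8 (median 0.78), Smads with Skil 1 higher and 3 lower of 9 (median 0.22), and targets 2 higher and 2 lower of 5, where 10.0% of all genes were higher and 12.9% lower. With so few genes to a role, 1 higher of 9 or 1 lower of 8 is no more than that background. Between MEF and ES cells the medians were 0.92 for ligands, 3.43 for latent TGF-beta binding proteins, 1.81 for receptors and co-receptors, 1.69 for antagonists, 0.65 for Smads with Skil and 2.10 for targets.

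Several called values moved by over 1.5 times while their calls held. When probe sets were averaged, the difference between MEF and ES cells was 1.92 for Tgfb1, 2.30 for Inhba, 2.36 for Bmp1, 2.25 for Ltbp1, 1.97 for Ltbp3, 1.96 for Tgfbr2, 1.24 for Bmpr1b and 1.22 for Acvr1. In the same way MEF against NPC gave 2.24 for Tgfb1, 3.02 for Inhba, 2.38 for Ltbp1 and -1.21 for Smad5, and NPC against ES cells gave 1.50 for Bmp1, 1.14 for Ltbp3, 1.83 for Tgfbr2 and 1.22 for Bmpr2. With a pseudocount of 64, which narrows the differences of dim genes by construction, NPC against ES cells gave -1.75 for Bmp4, -1.15 for Smad6, -1.07 for Eng and -1.55 for Tgfbi. With the deposited scaling, MEF against ES cells gave 1.96 for Smad6 and 2.14 for Tgfbi, and MEF against NPC gave 2.06 for Ltbp3, 2.34 for Acvr1 and -1.0 for Smad5.

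Some differences that were not called passed the limit with another scaling. With median centring, MEF against ES cells gave 1.21 for Bambi, 1.16 for Smad2 and 1.15 for Smad5, and MEF against NPC gave 1.34 for Bmp1. With the deposited scaling, MEF against ES cells gave 1.30 for Inhbb, 1.19 for Bmp2, 1.32 for Bmp4, 1.22 for Bmp5, 1.53 for Bambi, 1.48 for Smad2, 1.17 for Smad4 and 1.47 for Smad5. MEF against NPC then gave 1.68 for Bmp1, 1.01 for Ltbp4, 1.07 for Tgfbr2, 1.38 for Bmpr1b, 1.26 for Nog, 1.14 for Chrd and 1.12 for Smad2.

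**Figure D4:**
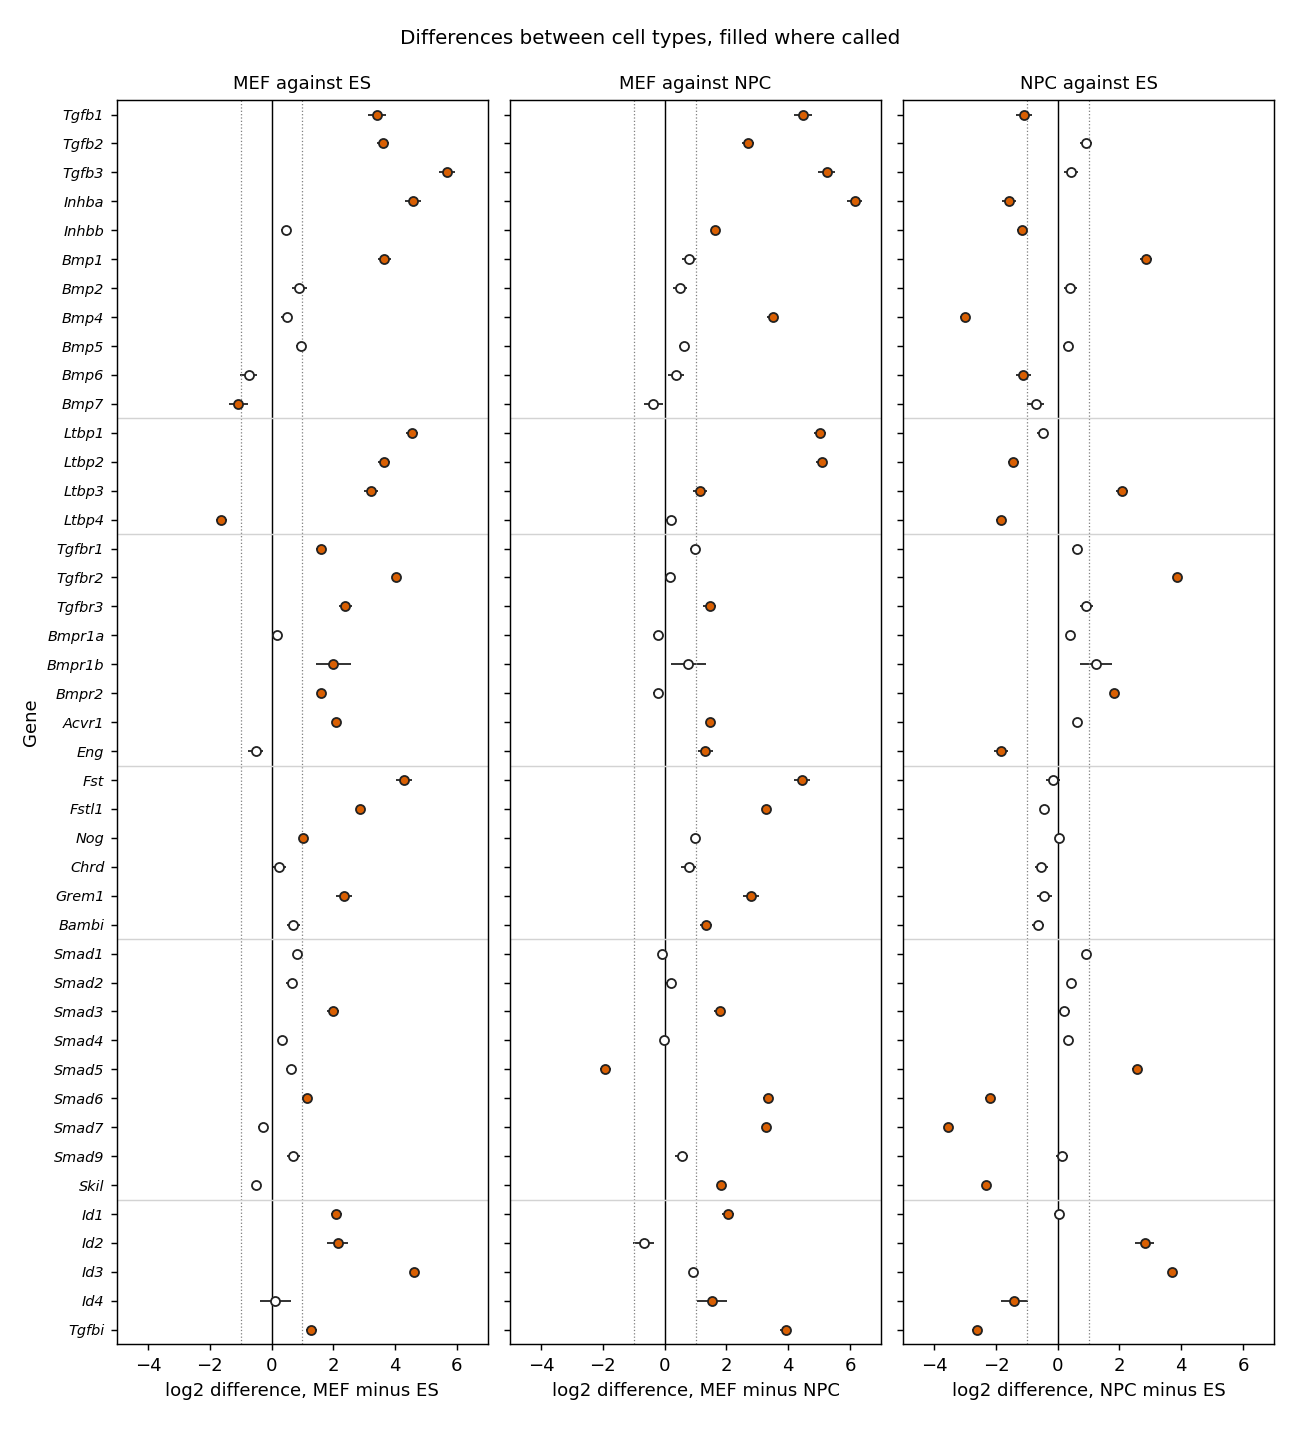
Each point is the log2 difference of a member with its SE, in panels for MEF against ES cells, MEF against NPC and NPC against ES cells. Filled points were called, open points were not, and dotted lines mark differences of 1 and -1. In both MEF panels nearly all filled points lie to the right, with 24 and 23 higher, whereas NPC against ES cells has 7 to the right and 13 to the left.

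A wider list of 54 further genes of the same pathway, also chosen with earlier results known, was read in the same way. MEF were higher than ES cells in 19 (35.2%, against 12.2% of all genes) and lower in 4 (7.41%, against 12.8%), with a median difference of 0.39. MEF were higher than NPC in 17 (31.5%, against 10.5%) and lower in 4 (7.41%, against 7.95%, so near the background), with a median of 0.42. NPC were higher than ES cells in 6 (11.1%, against 10.0%) and lower in 7 (13.0%, against 12.9%), shares near the background, with a median of -0.13. Among these further genes, the greatest differences of MEF were in Ccn2 and Thbs1 against NPC, and in Tgfb1i1 and Thbs1 against ES cells. Ccn2, or connective tissue growth factor, measured 13.21 and 13.15 in MEF, 4.91, 4.41 and 4.03 in NPC, and 9.83, 9.97 and 9.69 in ES cells. MEF were 8.73 log2 units above NPC (adjusted p = 1.41e-08) and 3.35 above ES cells (adjusted p = 2.44e-06), and NPC differed from ES cells by -5.38 (adjusted p = 6.58e-08). Thbs1, thrombospondin 1, an activator of latent TGF-beta, followed the same order with 12.99 and 12.81 in MEF, 5.37, 5.07 and 4.97 in NPC, and 7.79, 7.71 and 7.79 in ES cells. Its differences were 7.76 for MEF against NPC, 5.14 for MEF against ES cells and -2.63 for NPC against ES cells.

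Itgb8, the beta chain of an integrin that activates TGF-beta in neural tissue, went the other way. It measured 6.19 and 6.21 in MEF, 8.88, 8.25 and 8.20 in NPC, and 4.46, 4.48 and 4.38 in ES cells. NPC were 16.1-fold higher than ES cells (4.01, SE 0.19, adjusted p = 3.34e-07), and MEF differed from NPC by -2.25 and from ES cells by 1.76, which was not called with a pseudocount of 64 (0.81). Tgfb1i1, also called Hic-5, was 5.37 higher in MEF than in ES cells and 5.70 higher than in NPC, and Pmepa1, a target that dampens Smad signalling, was 2.88 and 4.33 higher. The BMP-binding proteins Crim1 and Bmper were graded, with differences of 4.07 and 3.58 for MEF against ES cells, and of 2.71 and 1.95 for NPC against ES cells. Nbl1, a gremlin relative, gave 1.50 for NPC against ES cells, a call that ended with a pseudocount of 64 (0.61).

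Acvr2b, Acvr1b and Tgif1 were lower in both MEF and NPC than in ES cells. Acvr2b, a type II activin receptor, measured 4.96 and 5.47 in MEF, 6.33, 7.08 and 6.88 in NPC, and 8.47, 8.34 and 8.51 in ES cells. MEF differed from ES cells by -3.23 (adjusted p = 5.13e-06), NPC from ES cells by -1.68 (adjusted p = 0.000154) and MEF from NPC by -1.55 (adjusted p = 0.00074), the last not called with a pseudocount of 64 (-0.89) or the mean of its probe sets (-0.92). Acvr1b, a type I activin receptor, differed by -1.77 for MEF and -1.49 for NPC against ES cells, and by -0.50 and -0.99 when its probe sets were averaged, and neither was then called. Tgif1, a corepressor that binds Smads, was 8.11-fold lower in NPC than in ES cells (-3.02, SE 0.12, adjusted p = 1.07e-07). For MEF against ES cells Tgif1 gave -1.54 and Trim33, a Smad4 ubiquitin ligase, -1.22, but -0.74 and -0.42 with the deposited scaling, when neither was called, and Trim33 gave -0.74 with median centring. Tgif2 and Gdf9 gave -1.38 and -1.22 for MEF against NPC. Tgif2 was not called with median centring (-0.81), the deposited scaling (-0.47) or the mean of its probe sets (-0.91), nor Gdf9 with the deposited scaling (-0.86) or a pseudocount of 64 (-0.63).

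**Figure D5:**
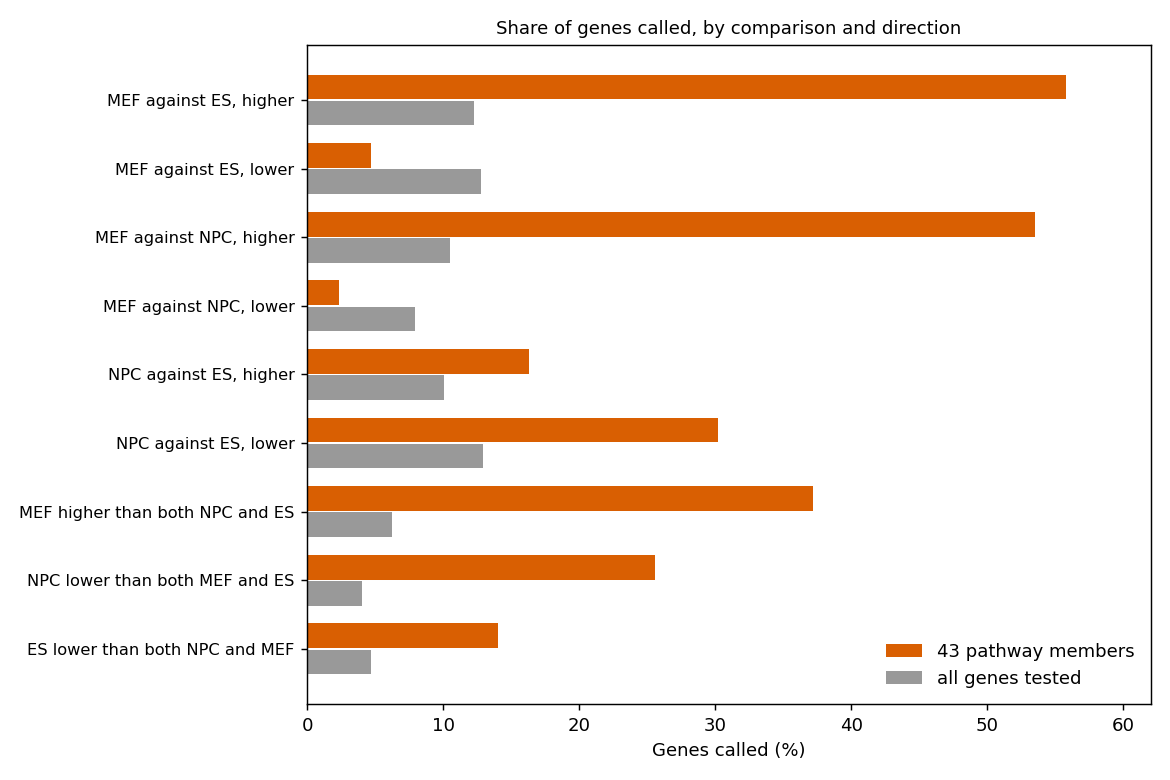
Bars give the percentage of the 43 members and of all 18193 genes that met each of 9 rules: called higher or lower in each comparison, higher in MEF than in both others, lower in NPC than in both others, and lower in ES cells than in both others. The widest gap is for genes higher in MEF than in ES cells, at 55.8% of members and 12.2% of all genes.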

How the data were processed

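Messenger RNA was measured on 8 arrays, and the deposited values are linear probe set intensity. The submitters' processing notes name GCOS 1.4, while its algorithm, background and scaling are not given in the sources used here. Without the 64 controls, 45037 probe sets were used, of which 34945 were annotated to 1 gene, 932 to several and 9160 to none. Values were taken as log2(intensity + 16) and quantile normalized. The brightest probe set stood for each of 18193 genes. Of the members, 29 had more than 1 probe set, and 9 were read from sets with suffix _x_at, _s_at or _a_at, whose probes may match related sequences or several transcripts. Of these, Ltbp4, Eng, Grem1 and Id1 have no other.

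A linear model was fitted to all arrays with limma 3.58.1 (R 4.3.3) and a variance trend, so MEF shared the other groups' spread. Benjamini-Hochberg adjustment ran over all genes. The procedure was tested on simulated data. Members and lists were chosen with earlier results of these data known. Any member could be named, and of 54 measured further genes (63 listed, 9 not used here) the 4 with the greatest called difference in each direction per comparison. Alternatives were other scalings, pseudocounts of 1 and 64, a filter on dim genes, other probe set rules, fits and thresholds, and leaving out each array. Trimmed mean scaling was chosen after seeing the data. The number of arrays limits the precision. The labels give no pairing of arrays. Deviations of same-numbered arrays from their group means correlated at -0.0199 to 0.0228. With so few arrays in a group, this cannot exclude a pairing. Sequences are RefSeq's.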

Additional observations from a re-analysis of the deposited data

How the results depend on the processing

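Of the 70 called differences of members, 54 kept their call under every alternative that held the 2-fold limit, and 16 lost it under at least 1. Of the 59 not called, 24 passed under at least 1. A further 29 values under alternatives, from 15 differences, had the opposite sign and were called neither way. The cause of these changes was not tested. With all genes, 4173 were called for NPC against ES cells (1828 higher, 2345 lower), 4554 for MEF against ES cells (2227, 2327) and 3359 for MEF against NPC (1912, 1447). With no minimum difference these were 8530 (3778, 4752), 8447 (3843, 4604) and 7145 (3517, 3628). That setting also gave 31 members for NPC against ES cells, 15 of them higher, and 4 members lower in MEF than in ES cells. Of the further genes it gave 28 for NPC against ES cells (13 higher, 15 lower), 8 lower in MEF than in ES cells, and 34 for MEF against NPC (26, 8). With the deposited scaling, 0 members and 2 further genes were lower in MEF than in ES cells, and over all genes 4338 were higher and 1129 lower. For MEF against NPC it gave 29 further genes higher and 2 lower, and 5095 of all genes (4459 higher, 636 lower). A pseudocount of 64 gave 7 members lower in NPC than in ES cells, 1 lower in MEF than in ES cells and 2 further genes lower in MEF than in NPC. Over all genes it gave 2626 (1215, 1411), 2937 (1465, 1472) and 2103 (1211, 892) in the same order. With the mean of probe sets, 2 further genes were lower in MEF than in NPC. Without probe sets of shared sequence Smad2 reversed, to -1.29 for NPC and -1.13 for MEF against ES cells, since the value then comes from its other probe set. Leaving out 1 array at a time gave 1 to 2 members lower in MEF than in ES cells and 1 to 2 lower in MEF than in NPC.

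With the replicate number as a block, 20 members were called for NPC against ES cells, 24 for MEF against ES cells (1 of them lower) and 25 for MEF against NPC. The block changed the calls of 3 member differences, and the labels do not say whether the numbers pair the arrays. Genes near the floor of the scale have little signal over background, so their differences are limited by it. Other background corrections and the slide as a block were not run, since only summarized intensities were used.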
